A study of Mus musculus with 8 samples.

Results

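The cytosolic ribosomal protein genes encode the proteins of the large (Rpl and Rplp symbols) and small (Rps symbols and Rpsa) subunits of the ribosome that translates nuclear-encoded mRNA. They were chosen by symbol alone, and 83 of the 30211 genes in the deposited count tables met the rule, 51 of the large and 32 of the small subunit. Ribosomal S6 kinases, pseudogene symbols and mitochondrial ribosomal proteins were left out. The question asked of them was what share of the unique molecular identifiers (UMIs, 1 per captured RNA molecule) in hippocampal nuclei they supplied, by cell type, by UMIs per nucleus and by mouse.

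Ribosomal protein mRNAs are short, stable and almost wholly cytoplasmic, and every cell translates from them. Many start with a C followed by a run of pyrimidines, the 5′ TOP motif, through which mTORC1 signalling controls their translation as a group. Their share in nuclei is often read beside that of mitochondrially encoded RNA, which has no nuclear source, and of Malat1, a nuclear-retained long noncoding RNA.

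Single nuclei came from the hippocampus of C57BL/6 mice (C57BL/6N in the study's methods), with 1 library per mouse and no pooling. The 3 WT mice and the 3 GKO mice were 7 months old. The J20 line was represented by 1 mouse with intact Gsap (J20;WT) and 1 without it (J20;GKO), both 6 months old. GKO mice lack several exons of Gsap, the gene of the gamma-secretase activating protein, in all tissues, since the floxed allele was crossed to a CMV-Cre driver. J20 mice carry human APP with the Swedish and Indiana mutations under the PDGFB promoter. Gsap itself was at 22.6 ± 0.358 CPM (UMIs in each 1e6 UMIs) in WT libraries and 21.2 ± 1.21 CPM in the libraries labelled GKO (SD, n = 3). It was at 19.9 CPM in the J20;WT library, against 21.1 CPM for J20;GKO. The tables count UMIs per gene and not per exon, so these values do not check the deletion.

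After the filter on nuclei, 32041 of 33314 barcodes and 243887863 UMIs remained, with 21020159 to 43310978 UMIs per library. Pairs of libraries shared between 2 and 27 barcodes. Nuclei were assigned to classes by marker genes, none of them a ribosomal protein gene, which placed 27005 nuclei in 8 classes and left 15.7% ungated. Of 24 further markers not used for assignment, 22 were highest in their own class. Nxph1, a marker of inhibitory neurons, was higher in OPCs (oligodendrocyte precursor cells). Dates in the names of the deposited files, whose meaning is not given in the sources used here, put the first WT and first GKO mouse under date A, J20;WT alone under date C and the other 5 libraries under date B. These are called batches here.

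The annotated start sites of the members were searched for the 5′ TOP motif. RefSeq promoter sequences (GRCm38.p6) were matched by symbol for 63 of the 83 members. At the annotated first base itself, a C followed by at least 4 pyrimidines was present in 13 of these 63 genes (20.6%), against 813 of all 27025 genes in the table (3.01%). Within 5 bases of that base on either side it was present in 46.0% of the members and 21.2% of all genes. Of 69 mitochondrial ribosomal protein genes, whose products work inside mitochondria, 0 had it at the first base. Within 5 bases 17 of them (24.6%) had it, near the share of all genes. The search covered the transcribed strand only. A gene counted when any of its listed starts matched. How exact the annotated starts are was not tested, so these shares do not give the part of the members' mRNAs that carry the motif. The windows below run from 5 bases before the start to 25 bases from it, 5′ to 3′, and capitals mark the C and its pyrimidine run. They were chosen to show members of both subunits, a stalk protein and the S6 kinase substrate Rps6 with the motif at the start, and 2 paralogs with a shifted run.
Rps6, chr4:86857343-86857372, minus strand: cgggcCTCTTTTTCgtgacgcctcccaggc
Rps18, chr17:33955641-33955670, minus strand: ccgctCTCTCTTCCacaggaggcctacacg
Rps10, chr17:27635220-27635249, minus strand: cgcccCTTCCTTTCCagcctccgcctcgga
Rplp2, chr7:141447646-141447675, plus strand: tcttcCTTTCgccgccggacgccgccgagg
Rpl28, chr7:4792960-4792989, plus strand: tgtctCTCTTTCCgtctccggccgccatag
Rpl35a, chr16:33056477-33056506, plus strand: ccttcCTCTTTCCgccatcttggcgcctgt
Rpl22l1, chr3:28805503-28805532, plus strand: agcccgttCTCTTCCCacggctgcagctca
Rps27l, chr9:66946081-66946110, plus strand: ccgccgCCTCTatcccggaagttgctgagg

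The 83 genes supplied 535899 UMIs, or 0.220% of all UMIs, and 99.3% of kept nuclei held at least 1 of them. By library the share was 0.203% in WT 1, 0.225% in WT 2, 0.234% in WT 3, 0.194% in GKO 1, 0.222% in GKO 2, 0.210% in GKO 3, 0.229% in J20;GKO and 0.272% in J20;WT. The lowest was a GKO and the highest the J20;WT library. The large subunit genes held 59.4% of these UMIs and the small subunit genes 40.6%. A median nucleus had 13 such UMIs from 12 of the genes.

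UMIs were spread widely over the members, and the 10 with most UMIs held 27.9%. In the large subunit these were led by Rpl6 (24420 UMIs), Rpl41, the shortest ribosomal protein (21327 UMIs), Rpl27a (14274 UMIs), Rpl37a (11459 UMIs) and Rpl5 (11025 UMIs), which binds 5S rRNA. In the small subunit they included Rps29 (15564 UMIs), Rps15 (12112 UMIs) and Rps24 (10734 UMIs). Rps27a, which is made as a fusion with ubiquitin, had 10030 UMIs and was not among the 10. These are counts and not levels per length, and the genes were not ranked by expression. Rpl6 ranged from 82.1 CPM in GKO 1 to 120 CPM in GKO 2 with a median of 102 CPM. Rpl41 lay between 71.9 CPM in GKO 1 and 135 CPM in J20;WT, well above its median of 84.6 CPM. The J20;WT library stood out for Rpl41 but not for Rpl6.

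The stalk proteins Rplp0, Rplp1 and Rplp2, which recruit translation factors to the ribosome, had 4998, 8791 and 2171 UMIs. Rpsa, a small subunit protein also known as the laminin receptor precursor, had 9677. Among the X-linked members Rps4x had 4856, Rpl39 2760, Rpl10 1651 and Rpl36a 686 UMIs.

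Rpl13 and Rpl10l had 0 UMIs in every library. Zero UMIs among 243887863 allows at most 3 counts in all. Rpl10l, a paralog of Rpl10 known from testis, lies at chr12:66283379-66284401, and Rpl13 at chr8:123102350-123105244, both in mm10. Rpl39l, another paralog known from testis, had 1 UMI. Rpl13 encodes a standard subunit of the ribosome. The cause of its 0 was not tested.

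Other members have near-identical copies that the rule leaves out, and there the split of reads is uncertain. Rps27 had 801 UMIs, while Rps27rt, a copy of it, had 18524. Rpl9 had 5030 against 13442 for Rpl9-ps6, and Rpl27 had 1167 against 6050 for Rpl27-ps3. Rps12 had 1787 against 3517 for Rps12-ps3. With 7 more such symbols, the 11 copies and lookalikes held 44668 UMIs, 8.34% of the members' total. How the reads of these 4 members and their copies were divided cannot be told apart from the tables.

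Paralogs differed in how much of their pair they supplied. Rpl22l1 held 53.1% of the UMIs of the Rpl22 pair in excitatory neurons, 43.8% in oligodendrocytes and 36.8% in microglia. Rpl7l1, a nucleolar relative of Rpl7, held 48.9% of its pair in excitatory neurons and 36.8% in oligodendrocytes. Rps27l held 59.7% of the Rps27 pair in excitatory neurons, a share that rests on the low Rps27 count. Rpl3l, the muscle-enriched paralog of Rpl3, had 83 UMIs in astrocytes, in 8 of 8 libraries (5.79 CPM), and 0 in OPCs. With a floor of 3 counts over the OPC sum, its astrocyte level was at least 7.67-fold higher. In excitatory neurons it had 156 UMIs (1.10 CPM), and in oligodendrocytes 7 UMIs.

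Cell classes differed in their ribosomal protein share. The mean over 8 libraries was lowest in excitatory neurons, at 0.197% ± 0.028 (SD, n = 8), followed by inhibitory neurons at 0.217% ± 0.043, OPCs at 0.252% ± 0.027 and astrocytes at 0.268% ± 0.018. It was 0.305% ± 0.023 in oligodendrocytes and highest in microglia, the resident macrophages of the brain, at 0.375% ± 0.047. Excitatory neurons ranged from 0.160% (GKO 1) to 0.253% (J20;WT) with a median of 0.198%, and microglia from 0.299% (GKO 1) to 0.459% (J20;WT) with a median of 0.368%, so these classes did not overlap. Within libraries, 14 of the 15 pairs of classes differed at an adjusted p under 0.05 (2-sided exact sign-flip permutation test over 8 libraries, Benjamini-Hochberg adjustment over 15 pairs). Of these, 11 had the smallest p the test allows, 0.00781. Astrocytes and OPCs did not pass (difference 0.0159 ± 0.0228 percentage points, SD, n = 8, adjusted p = 0.0938 by exact permutation), and excitatory and inhibitory neurons passed narrowly (−0.0195 ± 0.0199, adjusted p = 0.0419). The latter no longer passed without WT 2, WT 3, GKO 2, GKO 3, J20;WT or J20;GKO (adjusted p between 0.067 and 0.0837, exact permutation, n = 7).

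**Figure D1:**
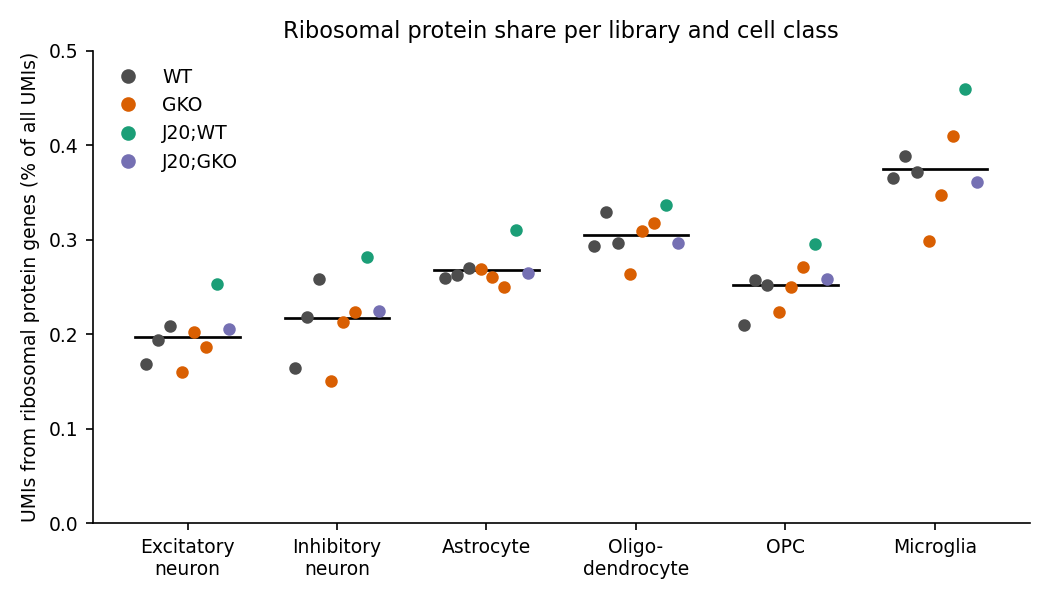
Share of all UMIs that came from the 83 ribosomal protein genes (y axis, %) in the 6 cell classes with at least 10 nuclei in every library, 1 point per library coloured by genotype group, with a line at the mean of the 8 libraries. Excitatory neurons lie lowest, with a mean of 0.197%, and microglia highest, with a mean of 0.375%, and J20;WT is the highest library in each class.

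Mural cells and fibroblasts, the cells around vessels and in the meninges, had 0.431% ± 0.048 (SD, n = 8) in 121 nuclei. Endothelial cells ranged from 0.340% to 1.86% over 61 nuclei, with as few as 3 nuclei in a library. Of 52 endothelial nuclei with at least 1000 UMIs, 7 had 2% or more of their UMIs from ribosomal protein genes, and these held 62.6% of the members' UMIs in those 52 nuclei. Nuclei of this kind made up 0.034% in excitatory neurons and 0.134% in microglia. Within excitatory neurons, dentate granule neurons had 0.262% ± 0.021, CA1 neurons 0.174% ± 0.027 and CA3 neurons 0.166% ± 0.025 (SD, n = 8), and each step held in 8 of 8 libraries (exact sign-flip permutation p = 0.00781, adjusted over 3 pairs).

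Classes also differed in UMIs per nucleus. The median was 10164 in excitatory and 11464 in inhibitory neurons, 4287 in OPCs, 3792 in astrocytes, 2227 in oligodendrocytes and 1982 in microglia. Both neuronal classes had more UMIs and smaller shares than the 4 glial classes, but inhibitory neurons had more UMIs and a larger share than excitatory neurons. The share was therefore also read within classes.

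Within each of the 6 classes tested the share fell from the nuclei with fewest to those with most UMIs. Mural cells and fibroblasts, not tested, had 0.441% at 1000 to 2000 UMIs and 0.460% at 2000 to 4000 UMIs. In excitatory neurons the third of nuclei with fewest UMIs had 0.273% ± 0.030 and the third with most 0.165% ± 0.028 (SD, n = 8), a ratio of 1.65. The ratio was 1.49 in oligodendrocytes, 1.42 in microglia, 1.42 in inhibitory neurons, 1.33 in astrocytes and 1.29 in OPCs. In each of the 6 classes the nuclei with fewest UMIs had the higher share in 8 of 8 libraries (adjusted p = 0.00781, exact sign-flip permutation test, also the smallest it allows). By library, the excitatory share ran from 0.242% to 0.333% in the nuclei with fewest UMIs and from 0.125% to 0.219% in those with most, so the ranges did not overlap.

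With libraries pooled, the 160 excitatory nuclei under 1000 UMIs had a share of 0.916%, those with 2000 to 4000 UMIs 0.341% and those above 16000 UMIs 0.153%. Their mitochondrially encoded share fell alongside, from 1.47% to 0.752% and 0.223%. The number of ribosomal protein UMIs in a nucleus rose with depth, from 6.44 to 10.9 and 34.8, but less than the total did. Only 5 libraries had at least 10 excitatory nuclei under 1000 UMIs, and their shares there ran from 0.481% to 1.40%.

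**Figure D2:**
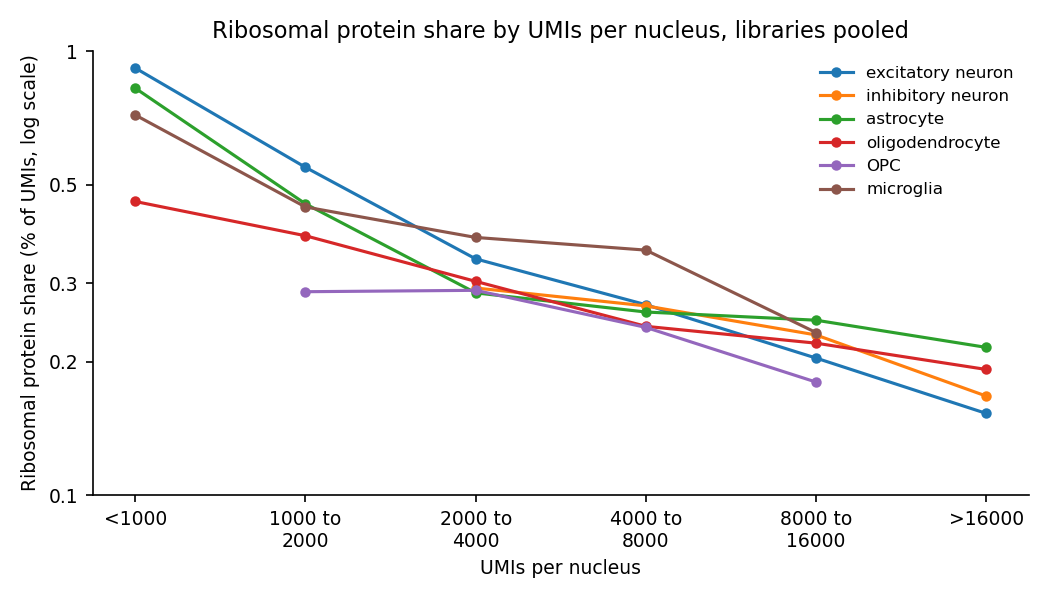
Ribosomal protein share (y axis, % of UMIs, log scale) in nuclei binned by UMIs per nucleus (x axis), with the UMIs of the 8 libraries pooled and 1 line per cell class, for bins of at least 20 nuclei. Excitatory neurons fall from 0.916% below 1000 UMIs, a bin of 160 nuclei, to 0.153% above 16000.

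Dentate granule neurons made up a median of 36.1% of the excitatory nuclei with fewest UMIs and 3.36% of those with most, while CA3 neurons made up 2.28% and 26.3%. The fall of the share with depth was also measured within each of these types. It was 0.306% against 0.231% in dentate granule neurons, 0.215% against 0.151% in CA1 neurons and 0.202% against 0.147% in CA3 neurons, each in 8 of 8 libraries (exact sign-flip permutation p = 0.00781).

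Markers of other cells were more often called higher than lower in the nuclei with fewest UMIs. Of 17 genes listed as markers of oligodendrocytes, astrocytes, microglia, choroid plexus or blood, 16 could be tested in excitatory neurons. Of these, 9 were called higher in the nuclei with fewest UMIs, against 18.6% of all genes tested, and 1 lower, against 17.3% (edgeR). The myelin transcripts Mbp and Mobp averaged 102 and 13.3 CPM in the nuclei with fewest UMIs and 64.7 and 8.15 CPM in those with most. The red cell globin Hbb-bs was at 10.2 and 3.58 CPM, and the astrocyte filament gene Gfap at 5.25 and 2.10 CPM. Enpp2 of the choroid plexus, the 1 marker called lower, was at 25.6 and 42.0 CPM. The astrocyte glutamate transporter Slc1a2 was at 163 and 188 CPM, a log2 difference of −0.29 within the limit of 0.3, and was not called. The microglial Itgam averaged 0.0439 and 0.0186 CPM. The part of such RNA in the fall of the ribosomal protein share was not tested.

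Nearly all members took part in the difference by depth. In excitatory neurons 69 of the 79 members that passed the filter on low counts were called higher in the nuclei with fewest UMIs (edgeR, adjusted p under 0.05 and a log2 difference over 0.3), against 18.6% of all genes tested, and 0 were lower, against 17.3%. Their median log2 difference was 0.62, against 0.02 over all genes. In oligodendrocytes 54 of 71 were higher, against 14.7%, and 0 lower, against 16.2%, with a median of 0.63. Rps3, a protein at the mRNA entry site, rose by 1.08 ± 0.08 (SE) on the log2 scale in excitatory neurons, Rpl32 by 1.04 ± 0.08 and Rps29 by 1.02 ± 0.07. Rpl6, the member with most UMIs, rose by 0.34 ± 0.04.

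The 10 members of excitatory neurons that were not called included Rpl31 (0.04 ± 0.13), Rpl35 (0.08 ± 0.21) and Rps27l (0.15 ± 0.18), none of which differed beyond its error. The paralogs Rpl7l1 and Rpl22l1 had log2 differences of 0.27 ± 0.08 and 0.33 ± 0.10. Across the 79 members the difference was nearly unrelated to the genomic length of the gene (Pearson r = 0.054) but tended to be larger in members with more UMIs (Pearson r = 0.51). In oligodendrocytes the latter r was 0.19 over 71 members. These values describe these genes only, since genes are not replicates. The members were short genes, with a median span of 3.37 kb.

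Other gene lists were read beside the members, with no test of one list against another. The 13 mitochondrially encoded mRNAs all rose in excitatory nuclei with few UMIs, by a median of 1.15 on the log2 scale, and short cytoplasmic mRNAs rose in 16 of 19 tested (median 0.43). Translation factors and other TOP mRNAs, among them the elongation factor Eef1a1, rose in 9 of 18 (median 0.31), mitochondrial ribosomal proteins in 16 of 76 (median 0.17) and ribosome biogenesis factors, which work in the nucleolus, in 6 of 36 (median 0.09). The shares of the last 2 lists lie near the 18.6% of all genes called higher. In oligodendrocytes short cytoplasmic mRNAs rose in 17 of 18, with a median of 0.63 like that of the members. Of 6 nuclear-retained lncRNAs tested in excitatory neurons, 0 rose and 4 fell, with a median of −0.77. In oligodendrocytes 1 of 6 rose and 4 fell, with a median of −1.19.

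**Figure D3:**
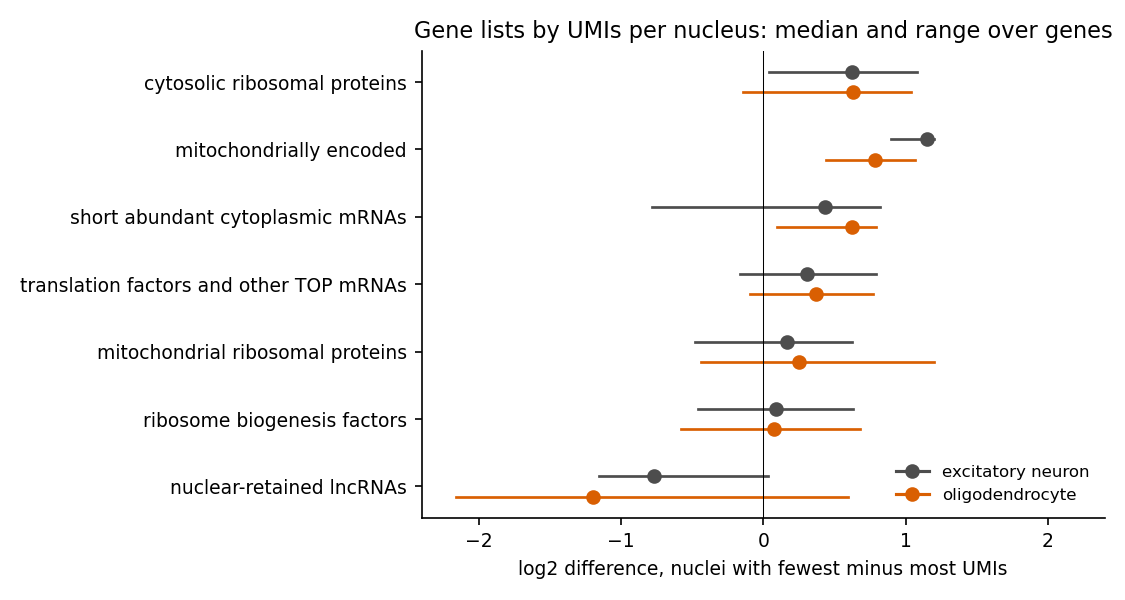
Median (point) and range over genes (line) of the log2 difference between the third of nuclei with fewest and the third with most UMIs (x axis), for the ribosomal protein genes and 6 other gene lists (y axis), in excitatory neurons and oligodendrocytes. The ribosomal protein genes have medians of 0.62 and 0.63, the mitochondrially encoded genes 1.15 and 0.78, and the nuclear-retained lncRNAs −0.77 and −1.19.

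At matched depth the classes came closer. Among nuclei with 2000 to 8000 UMIs the share was 0.273% ± 0.023 in excitatory neurons, 0.272% ± 0.066 in inhibitory neurons, 0.276% ± 0.019 in astrocytes, 0.257% ± 0.022 in OPCs, 0.297% ± 0.016 in oligodendrocytes and 0.384% ± 0.045 in microglia (SD, n = 8). Of 15 pairs 6 passed (adjusted p between 0.0234 and 0.0391, exact sign-flip permutation test), namely the 5 pairs with microglia and oligodendrocytes against OPCs. Both neuronal classes still lay below microglia, while their differences from astrocytes, oligodendrocytes and OPCs did not pass (adjusted p between 0.0521 and 0.938, exact permutation, n = 8). Excitatory neurons and astrocytes differed by −0.0024 ± 0.0131 percentage points (SD, n = 8). Median UMIs within this range still ran from 2379 in microglia to 6660 in inhibitory neurons.

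In the narrower range of 2000 to 4000 UMIs, chosen after the data were seen, excitatory neurons had 0.350% ± 0.044, above astrocytes (0.292% ± 0.022, adjusted p = 0.0469) and OPCs (0.295% ± 0.023, adjusted p = 0.0195, exact permutation, n = 8). Microglia stayed above astrocytes, oligodendrocytes and OPCs (0.392% ± 0.048, adjusted p = 0.0195 by exact permutation, higher in 8 of 8 libraries) but not above excitatory neurons (adjusted p = 0.0558, higher in 6 of 8). Excitatory neurons, the class with the smallest share over all nuclei, thus had the second largest mean of the 5 classes tested here. The range held only 340 of the 11904 excitatory nuclei, from the low end of their UMIs. It held 4113 of the 7365 oligodendrocytes, 1483 of the 2965 astrocytes and 964 of the 2288 microglia. It thus sets the low-UMI nuclei of 1 class beside more typical nuclei of others. Dentate granule neurons and CA1 neurons in the 2000 to 8000 range had 0.295% and 0.274%, a difference of 0.0208 ± 0.0276 (adjusted p = 0.129, exact permutation, n = 8), with as few as 2 CA1 nuclei in a library.

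**Figure D4:**
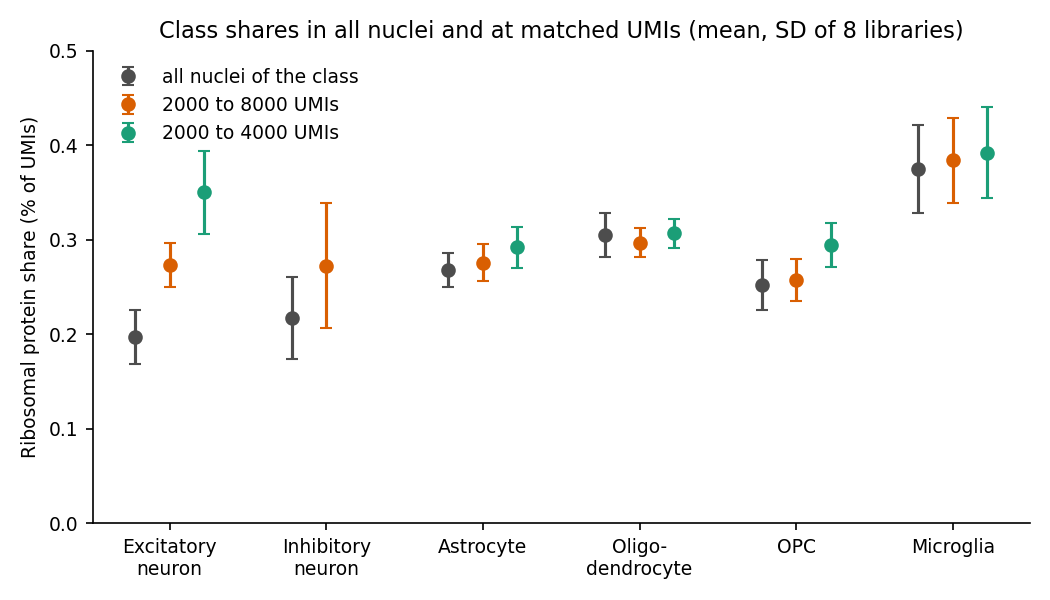
Mean ribosomal protein share (y axis, % of UMIs) with its SD over 8 libraries for each cell class, in all nuclei of the class, in nuclei with 2000 to 8000 UMIs and in nuclei with 2000 to 4000 UMIs. Inhibitory neurons have no value in the narrow range because a library had only 2 such nuclei. Excitatory neurons move from 0.197% to 0.273% and 0.350%, and microglia from 0.375% to 0.384% and 0.392%. The narrow range holds 340 of the 11904 excitatory nuclei and 964 of the 2288 microglia.

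Gene by gene, neurons were low and oligodendrocytes and microglia high, when each class was set against the mean of the others (edgeR, library as a block, 79 members tested). In excitatory neurons 41 members were lower, against 29.4% of all genes, and 0 higher, against 31.6%. In inhibitory neurons 43 were lower (28.5%) and 3 higher (29.2%). Oligodendrocytes had 47 higher (25.1%) and 2 lower (32.9%), and microglia 48 higher (27%) and 0 lower (32.5%), where the percentages are those of all genes tested. Astrocytes had 10 higher (28%) and 1 lower (27.9%), and OPCs 0 higher (20.8%) and 16 lower (24.4%), both at or under the background. The median member differed by −0.32 in excitatory neurons, −0.33 in inhibitory neurons, 0.09 in astrocytes, −0.14 in OPCs, 0.34 in oligodendrocytes and 0.35 in microglia on the log2 scale. The depth of the nuclei differed between these classes as given above.

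With library size alone in place of TMM, the median over all genes moved from −0.11 to 0.08 in microglia and from 0.00 to −0.15 in excitatory neurons, and the member counts became 65 higher in microglia, 31 higher in oligodendrocytes and 4 higher with 7 lower in OPCs. The members' medians kept their signs.

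Rpl26, which sits near the peptide exit tunnel, was at 25.6 ± 4.3 CPM in excitatory neurons and 74.1 ± 9.1 CPM in oligodendrocytes (SD, n = 8), with ranges of 20.6 to 33.6 and 67.2 to 94.8 CPM that did not overlap. Its log2 difference was −0.82 ± 0.06 (SE) in excitatory neurons and 1.00 ± 0.06 in oligodendrocytes, the smallest and the largest of their class. Rpl18 was lowest in inhibitory neurons (−0.85 ± 0.08) and second lowest in excitatory neurons (−0.75 ± 0.06). Rps29 was at 50.2 ± 6.2 CPM in excitatory neurons and 157 ± 27 CPM in microglia.

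In oligodendrocytes Rps3 (0.78 ± 0.07) followed Rpl26, while Rpl10a (−0.43 ± 0.08) and Rpl12 (−0.35 ± 0.10) were the members called lower. In microglia Rps9 (1.20 ± 0.0783) and Rps29 (0.93 ± 0.07) led, and Rpl22l1 (−0.28 ± 0.15) and Rps21 (−0.20 ± 0.14) were the lowest, neither past the test. In inhibitory neurons Rps21 (0.45 ± 0.09) and Rpl22l1 (0.43 ± 0.10) were among the 3 called higher.

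Astrocytes had Rpl3l as their leading member (3.86 ± 0.41), a fitted value that depends on few counts, and then Rpl18 (0.49 ± 0.07). Their lowest members were Rpl13a (−0.40 ± 0.18), which did not pass the test, and Rpl7a (−0.33 ± 0.13). In OPCs the lowest by fit was Rpl3l, at 0 UMIs, and then Rps27 (−0.71 ± 0.49), which did not pass, with Rps15a (0.32 ± 0.15) and Rpl13a (0.29 ± 0.25) at the other end without passing.

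**Figure D5:**
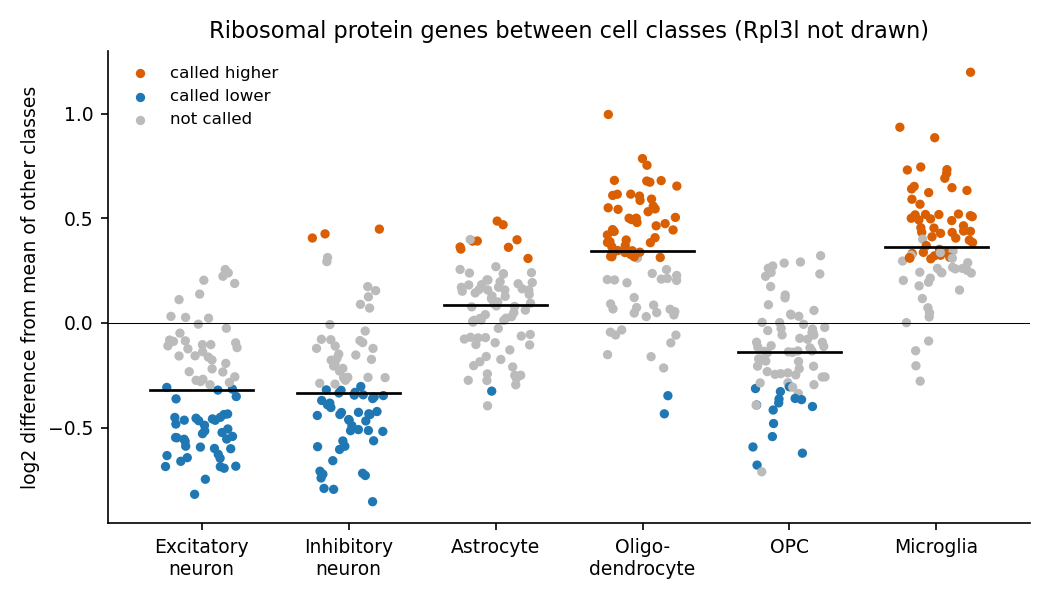
Log2 difference of each tested ribosomal protein gene between a cell class and the mean of the other 5 classes (y axis), 1 point per gene, coloured by edgeR call, with a line at the median of the genes drawn. Rpl3l, which rests on few counts, is not drawn. In microglia 48 of 79 genes are called higher and 0 lower, and in excitatory neurons 41 lower and 0 higher.

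The subunits did not move equally. The ratio of large to small subunit UMIs was 1.51 ± 0.05 in excitatory and 1.52 ± 0.08 in inhibitory neurons, and 1.35 ± 0.07 in oligodendrocytes and 1.35 ± 0.04 in microglia (SD, n = 8). The ranges of excitatory neurons (1.43 to 1.57) and microglia (1.31 to 1.40) did not overlap.

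Across the 48 sums of library and class, the genes outside the rule whose log2 CPM was most like the summed level of the members were Gm9843, a processed pseudogene (Pearson r = 0.94), and Gabarap, an autophagy gene (0.91). Next came Gm10073 (0.89), the translation elongation factor Eef1a1 (0.89), Tmem50a (0.89), Itm2b (0.89), the cytoplasmic actin Actb (0.87), Foxn3 (0.87), Cept1 (0.87) and Rps12-ps3 (0.87). The points share libraries and classes, and the median over the 10869 genes examined was 0.087. Within classes, after removal of class means, r stayed at 0.87 for Eef1a1 and was 0.23 for Foxn3.

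Nuclei rich in mitochondrially encoded RNA were also rich in ribosomal protein RNA. In excitatory neurons the third with the highest mitochondrial share had 0.249% ± 0.026 and the third with the lowest 0.167% ± 0.030 (SD, n = 8), and in microglia 0.476% ± 0.079 and 0.304% ± 0.040. The difference was positive in 8 of 8 libraries in 5 classes and in 7 of 8 in OPCs (adjusted p = 0.00938 and 0.0156 by exact sign-flip permutation). Nuclei with more mitochondrial RNA also had fewer UMIs, with a median of 8057 against 13680 in excitatory neurons. Among nuclei with 2000 to 8000 UMIs, a limit added after the data were seen, the difference remained in all 6 classes, at 0.0819 ± 0.0520 percentage points in excitatory neurons (adjusted p between 0.0156 and 0.0391, exact permutation, n = 8).

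The share was also read by Malat1. Astrocytes with most Malat1 had 0.250% against 0.289% for those with least, and microglia 0.329% against 0.424% (adjusted p = 0.0469, exact permutation, n = 8). Neither passed when any library but GKO 2 was left out (adjusted p = 0.0938, exact permutation, n = 7). In microglia the nuclei with most Malat1 had the higher share in 0 of 8 libraries, and in astrocytes in 1 of 8. With any library left out, microglia therefore kept the smallest p that 7 libraries allow. Their failure to pass reflects that limit and the adjustment over classes, and does not show that the difference depended on single libraries. In the other 4 classes the differences lay between −0.0216 and 0.0128 percentage points and did not pass (adjusted p between 0.156 and 0.898, exact permutation, n = 8).

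GKO and WT mice did not differ detectably in the share. In excitatory neurons it was 0.160%, 0.202% and 0.187% in GKO mice 1 to 3 and 0.168%, 0.194% and 0.209% in WT mice 1 to 3. The means were 0.183% ± 0.021 and 0.190% ± 0.021 (SD, n = 3, exact permutation p = 0.7), and the groups overlapped. In microglia the GKO values of 0.299%, 0.347% and 0.410% spanned the WT values of 0.365%, 0.388% and 0.372%, with a difference of −0.0232 percentage points (p = 0.6, exact permutation). Over all nuclei the difference was −0.0121 (p = 0.4, exact permutation). With 3 mice against 3 the smallest p is 0.1, so no difference could have passed. Within batch A the GKO mouse differed from the WT mouse by −0.0076 in excitatory neurons, and within batch B by −0.0070.

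Among single members, 0 were called between GKO and WT in any of the 6 classes or over all nuclei, as for all genes, of which 0% were called in each (edgeR, adjusted p of at least 0.999 for every member). At an unadjusted p under 0.05 there were 2 of 58 tested members in OPCs, 2 of 67 in microglia and 1 of 80 over all nuclei, and none in the other 4 classes. Over all genes tested the share at that p was 2.20% in OPCs, 1.68% in microglia and 1.32% over all nuclei. DESeq2 called 0 too. In OPCs Rps18 was at 25.7, 25.4 and 28.8 CPM in WT mice and 35.3, 53.6 and 54.7 CPM in GKO mice, and Rps4x at 19.0, 21.8 and 16.8 CPM against 38.3, 31.3 and 35.2 CPM. In microglia Rpl19 was at 74.9, 85.2 and 68.3 CPM in WT and 37.5, 60.0 and 52.9 CPM in GKO mice. These 3 genes are named for their small unadjusted p, so the gap between their groups is no further evidence, and their adjusted p by edgeR was 0.999 or more.

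The smallest unadjusted p in excitatory neurons belonged to Rpl3 (−0.28 ± 0.13, SE) and Rps7 (−0.38 ± 0.18), in oligodendrocytes to Rps7 (−0.38 ± 0.18) and in astrocytes to Rplp0 (−0.35 ± 0.17), all on the log2 scale and none past the test. Rpl12 led in inhibitory neurons (0.41 ± 0.20), and Rpl3 was the member with an unadjusted p under 0.05 over all nuclei (−0.24 ± 0.11). The median log2 difference of the members was −0.04 in excitatory neurons, −0.02 in oligodendrocytes and −0.10 in microglia, against 0.00 over all genes in each.

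Libraries also differed by batch, which was not tested. The 2 batch A libraries had 0.160% and 0.168% in excitatory neurons, under the 0.187% to 0.209% of batch B, and they also lay below batch B in inhibitory neurons, oligodendrocytes and OPCs. Batch A nuclei had more UMIs, with a median of 12338 and 12880 in excitatory neurons against 9249 to 10923 in batch B. J20;WT, the only library of batch C, had the highest share in each of the 6 classes, at 0.253% in excitatory neurons, and the lowest median there, 7846 UMIs.

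The J20 mice had 1 library each and gave no test. J20;WT had 1.23 times the share of J20;GKO in excitatory neurons (0.253% and 0.206%), 1.27 times in microglia and 1.13 times in oligodendrocytes. Mice of 1 genotype differed among themselves by up to 1.26 times in excitatory neurons, 1.37 times in microglia and 1.21 times in oligodendrocytes. Only in astrocytes was the ratio of J20;WT to J20;GKO, 1.17, above the largest ratio within a genotype, 1.08. In nuclei with 2000 to 8000 UMIs the J20;WT and J20;GKO shares were 0.316% and 0.286% in excitatory neurons. They were 0.472% and 0.381% in microglia and 0.319% and 0.280% in astrocytes. For J20;WT, genotype and batch cannot be told apart.

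Across the 8 libraries the share showed no relation to the mitochondrially encoded or the Malat1 share that passed adjustment over 12 relations. In OPCs Pearson's r was 0.83 and Spearman's rho 0.79 (exact permutation p = 0.0093 and 0.0279, adjusted p = 0.112), and r fell to 0.51 without the 2 libraries farthest from the median, GKO 3 and J20;WT. In oligodendrocytes r was 0.70 and rho 0.79 (exact permutation p = 0.0527 and 0.0279, adjusted p = 0.226), and r rose to 0.89 without GKO 2 and GKO 3 (exact permutation p = 0.0042, not adjusted). In excitatory neurons r was 0.28 (exact permutation p = 0.515) and rho −0.12 (p = 0.793, exact permutation). Within batch B, with 5 libraries, r with the mitochondrial share was 0.63 in OPCs, 0.62 in microglia and 0.59 in oligodendrocytes. It was −0.95 in astrocytes, −0.62 in excitatory neurons and −0.34 in inhibitory neurons, where r over the 8 libraries was 0.54, 0.28 and 0.66. Batches A and C held too few libraries for a value.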

How the data were processed

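The deposited files hold raw UMI counts per gene and nucleus, which the authors made with Cell Ranger 3.0.2 (per the file headers) on mm10, from 1 10X Genomics library per mouse. Whether intronic reads were counted is not given in the sources used here. Per the submitters' processing notes, later steps used Seurat 3.0 in R 3.6.2, and none of their output was used. As in the study's methods, nuclei with over 5% mitochondrially encoded UMIs, fewer than 200 genes or more than 7500 genes were removed. The 32041 left were within a few nuclei of the total the methods give. Doublets were not called, and nuclei that met the markers of 2 classes stayed ungated.

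A nucleus was assigned to a class with at least 3 UMIs from at least 2 of its markers and 3 times the UMIs of every other class's markers, and 5158 nuclei lay within a factor of 2 of a limit. Classes with at least 10 nuclei in every library were tested. Shares are sums of UMIs over nuclei, so libraries and not nuclei are the replicates. The exact binomial (Clopper-Pearson) 95% interval of the excitatory share in WT 1, 0.166% to 0.170%, covers counting error only. Counts summed per library and class were fitted with edgeR 4.0.16 (TMM, filterByExpr, robust quasi-likelihood) in R 4.3.3 with Benjamini-Hochberg adjustment over all genes, at adjusted p under 0.05 and a log2 difference over 0.3. DESeq2 1.42.0, replicate block, batch, filter and scaling alternatives were run. Standard errors were taken from the fitted F statistic. In a check on simulated data in which the changed genes differed by a log2 value of 1, the GKO against WT fit recovered 74.0% of 192 changed genes among 17201 in excitatory neurons and 33.9% among 9364 in microglia. It also called 10 unchanged genes in excitatory neurons and 14 in microglia.

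The named members are those with most UMIs per subunit, the stalk proteins and Rpsa, paralogs, X-linked members, members at 0, the extremes per class and up to 3 with the smallest p per class. Other genes named are members of the comparison lists, markers, copies and the 10 genes most like the members. The members, lists, class markers and depth limits were chosen with earlier results of these data known. The replicate numbers were taken to pair WT and GKO mice, because the same-numbered libraries correlated at 0.57, 0.185 and 0.219 after removal of genotype means. Mice of different numbers in 1 batch were as close (0.216 and 0.303), so number and batch were not separated. Promoter sequences are from RefSeq and gene spans from GENCODE on GRCm38. The 20 members without a promoter entry include Rpl3, Rpl7, Rpl8, Rpl17, Rpl21, Rpl23a, Rpl29, Rpl30, Rpl32, Rpl36, Rplp1, Rps14, Rps20, Rps27a and Rps29. Some genes that the naming rule selects are counted in the totals but not reported here by name.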

Additional observations from a re-analysis of the deposited data

Results flagged for a closer look

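The 818 nuclei left out for over 5% mitochondrially encoded UMIs had a ribosomal protein share of 0.845% and a median of 858.5 UMIs, a signal in data that the comparisons do not use. By library it ran from 0.567% in WT 3 to 1.10% in J20;WT, above the 0.194% to 0.272% of the kept nuclei of all depths in every library. Kept nuclei under 1000 UMIs had 0.916% in excitatory neurons, 0.826% in astrocytes, 0.718% in microglia, 0.459% in oligodendrocytes and 0.685% when ungated. Removed and kept nuclei were not tested at matched UMIs. The 450 nuclei left out for more than 7500 genes had 0.162% and a median of 46850 UMIs.

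The copies and lookalike symbols outside the rule held 44668 UMIs, of which Rps27rt held 18524, Rpl9-ps6 13442 and Rpl27-ps3 6050. With them added, the class means were 0.213% in excitatory neurons, 0.333% in oligodendrocytes and 0.404% in microglia, and 14 of 15 pairs of classes passed. The groups of replicates here have 3 mice or fewer, so no single mouse was tested for standing apart.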

How the results depend on the processing

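The fall of the share with UMIs per nucleus kept its direction and its side of the threshold under each alternative run, as did its rise with the mitochondrial share. The count of class pairs that passed, 14 of 15, was 13 or 14 with single libraries left out, 12 with means over nuclei, 6 in nuclei with 2000 to 8000 UMIs and 5 of 10 in nuclei with 2000 to 4000 UMIs. In nuclei with 2000 to 8000 UMIs the difference turned to 0.000922 percentage points for excitatory minus inhibitory neurons, 0.0160 for excitatory neurons minus OPCs and 0.0151 for inhibitory neurons minus OPCs. Astrocytes minus OPCs turned to −0.00374 in nuclei with at least 1000 UMIs and at most 1% mitochondrial. The GKO minus WT share turned sign when single mice were left out, between −0.0183 and 0.00405 in excitatory neurons, −0.0425 and 0.00463 in inhibitory neurons, −0.00893 and 0.000878 in astrocytes, −0.0196 and 0.00764 in oligodendrocytes, −0.00696 and 0.0205 in OPCs and −0.0521 and 0.00321 in microglia. In OPCs it was −0.00262 with means over nuclei. With the replicate block, which changed no call, the excitatory difference stayed at −0.00724 (exact sign-flip permutation p = 0.75, where 0.25 is the smallest possible) and 0 members were called. GKO against WT calls stayed at 0 in all 97 alternatives, with up to 8 members at an unadjusted p under 0.05. The Malat1 difference with single libraries left out lay between −0.0454 and −0.0310 in astrocytes, −0.105 and −0.0812 in microglia and −0.00490 and 0.00807 in OPCs. In astrocytes and microglia it no longer passed without any of 7 of the 8 libraries. Microglia had the smallest p that 7 libraries allow each time, so there the adjustment alone kept it from passing. With library size alone, 31 members were higher in oligodendrocytes, 4 higher and 7 lower in OPCs and 5 lower in astrocytes. With DESeq2 size factors 1 was higher in OPCs and 0 lower in astrocytes. Without a filter on low counts 4 were higher in excitatory neurons, 1 lower in microglia and 0 lower in astrocytes. With single libraries left out, members called higher numbered 0 to 1 in excitatory neurons, 2 to 5 in inhibitory neurons, 6 to 13 in astrocytes and 0 to 2 in OPCs, and members called lower 0 to 4 in astrocytes and 0 to 1 in microglia. Without the 2 libraries farthest from the median, r across libraries turned to −0.60 (excitatory neurons) and −0.39 (astrocytes) for the mitochondrial share and to 0.93 (excitatory neurons), −0.80 (OPCs) and −0.51 (microglia) for Malat1. The cause of these changes was not tested. Classes with few UMIs, such as microglia, leave small differences in single members undetected.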
